A study of Rattus norvegicus with 4 samples.

Results

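Cytokine genes of aged rat tendon stem/progenitor cells (rTSPCs) were followed here through 59 genes for chemokines, interleukins, colony-stimulating factors, members of the tumor necrosis factor (TNF) superfamily, their receptors and the TRAF adaptors. They were picked by symbol, as every named gene whose symbol starts with Ccl, Cxcl, Cx3c, Cxcr, Ackr, Tnf or Traf. Symbols with Ccr, Il or Csf followed by a digit were also taken, and Il6, Il6r and Il6st were left out. The choice was made with earlier results of these data known. The 59 genes stand among 7235 named genes, each by 1 feature of the array. By role they comprise 21 ligands, 1 receptor antagonist, 28 receptors, 5 adaptors and 4 proteins named for their induction by TNF.

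Chemokines are small secreted proteins that call leukocytes to a tissue through G protein-coupled receptors, and atypical receptors such as Ackr3 bind them without coupling to G proteins. Interleukins, and colony-stimulating factors other than CSF1, act mostly through receptor chains that recruit JAK kinases and STAT factors. The IL-1, IL-17 and TNF receptor families instead work through adaptors, TRAF proteins among them, that lead to NF-κB. Fibroblast-like cells of connective tissue are known to release CCL2, CXCL chemokines and CSF1, and such factors belong to the secretory profile described for senescent cells.

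rTSPCs came from Achilles tendons of male Sprague-Dawley rats aged 18 months and were expanded from selected colonies. Both groups were cultured alike, and differed in the addition of prim-O-glucosylcimifugin (POG), a chromone of Saposhnikovia root, at 20 μmol·L−1 (18M + POG) or of the same volume of its solvent dimethyl sulfoxide (18M + DMSO). Either agent was added every 2 d for 7 d by the published methods, while the labels name passage 12, so the passage of these cells is not settled. RNA was measured on 4 Affymetrix Rat Transcriptome Arrays, 2 for each treatment. Groups follow the treatment entries of the labels, since the titles of the DMSO arrays name both agents, and all directions below are as labelled. The labels call the arrays biological replicates without naming the animals, so the p-values speak for the spread between these arrays alone, which may be technical.

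The values are log2 signals made by robust multichip analysis (RMA), with array medians of 8.55 to 8.68 over all features. Across features, the correlation was 0.994 and 0.995 within groups and 0.962 to 0.965 between them. Tendon factor Scx was at 5.48 to 6.09, and the mesenchymal markers Thy1 and Itgb1 and the collagen gene Col1a1 stood at 16.03 to 19.41 on every array. Of 5 surface markers 4 were measured, of which Eng (log2 fold change 0.665) and Cd34 (0.63) were higher in 18M + POG. Their adjusted p from limma was 0.0200 and 0.0297, and Thy1 and Itgb1 did not pass. Cd34, a marker of hematopoietic stem cells, was at 5.63 and 6.08 in 18M + DMSO and 6.55 and 6.42 in 18M + POG. Of 8 pan-leukocyte markers 3 were measured, at 4.16 to 4.86, and the log2 of their summed signal was 6.03 and 5.94 in 18M + DMSO and 6.32 and 6.16 in 18M + POG. Of 16 macrophage markers 4 were measured, none of which passed, with a log2 summed signal of 8.77 and 9.03 against 9.06 and 8.89. Most of that sum was Cd14, at 8.46 to 8.83, while Cd68, Fcer1g and Lyz2 were at 3.38 to 5.32. Defining markers such as Ptprc and Adgre1 are not among the named features and were not analysed here. Of 8 pericyte and smooth muscle markers 6 were measured, of which Myh11 (log2 fold change 3.14), Mcam (1.30) and Pdgfrb (1.29) were higher and Cspg4 (-0.84) was lower in 18M + POG, and of 10 tendon markers 7 were measured, of which Dcn (1.18) was higher and Tnc (-1.63) and Thbs4 (-0.93) were lower. The single markers measured for T cells, mast cells and endothelium were Cd28 (-2.13, lower), Kit (1.05, higher) and Kdr, which did not pass. Kit was at a low signal, 4.68 and 4.19 in 18M + DMSO and 5.62 and 5.34 in 18M + POG. Of 10 genes of dividing cells 9 were measured and all 9 were lower in 18M + POG, with log2 fold changes between -4.27 and -2.76 and a log2 summed signal of 16.30 and 16.27 in 18M + DMSO and 12.22 and 12.51 in 18M + POG. The part of these differences in the cytokine results was not tested, and fewer cells of a type and less RNA per cell cannot be told apart in bulk RNA.

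Csf1, the chemokine genes Ccl2 and Ccl7 and the TWEAK receptor gene Tnfrsf12a fell most in 18M + POG, and Il33, Il13ra1 and the IL-1 antagonist gene Il1rn rose most. Of the 59 genes, 10 were higher and 8 were lower in 18M + POG, with limma's adjusted p under 0.05, and 41 did not pass. That is 30.5% of them, beside 37.6% of all genes tested (20.4% higher and 17.2% lower). Over all signal levels the share of this set was thus below that background (shares by signal level are given below). Their median log2 fold change was 0.09, beside 0.04 for all genes. Among 21 ligands, 4 were higher (Il33, Il7, Il17b, Cxcl12) and 4 were lower (Csf1, Ccl2, Ccl7, Cxcl1). Among 28 receptors, 5 were higher (Il13ra1, Tnfrsf19, Il1rap, Il17re, Il10rb) and 3 were lower (Tnfrsf12a, Tnfrsf21, Il17rb). The share that passed was 38.1% for ligands and 28.6% for receptors. The median log2 fold change was 0.21 for ligands and 0.03 for receptors, and the median of its size, without sign, 0.36 and 0.30 beside 0.42 for all genes. No test of ligands against receptors was made, since genes are not replicates of a condition. By system, 8 of 24 interleukin, receptor and antagonist genes were higher and 1 was lower, 1 of 15 chemokine and chemokine receptor genes was higher and 3 were lower, and 1 of 18 genes of the TNF system was higher and 3 were lower.

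The counts depended on each array. They were 5 higher and 4 lower without 18M + DMSO replicate 1, and 1 higher and 4 lower without 18M + DMSO replicate 2. Without 18M + POG replicate 1 they were 5 and 2, and without 18M + POG replicate 2 they were 2 and 3. Csf1, Tnfrsf12a and Il1rn passed in all 4 of these fits, and every other gene of the 18 lost its call in at least 1. The methods' t-test (p under 0.05 and a fold change over 1.5) called 7 of the 59 genes unadjusted, all among the 18, beside 21.7% of all genes. Ccl2, Ccl7 and Il33 were among the 11 of the 18 that it did not call. After adjustment it called 0 of the 59 and 0 of all genes. Ranges of adjusted p below are over the alternatives fitted with limma. After subtraction of each array's median, 12 were higher and 6 were lower.

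**Figure D1:**
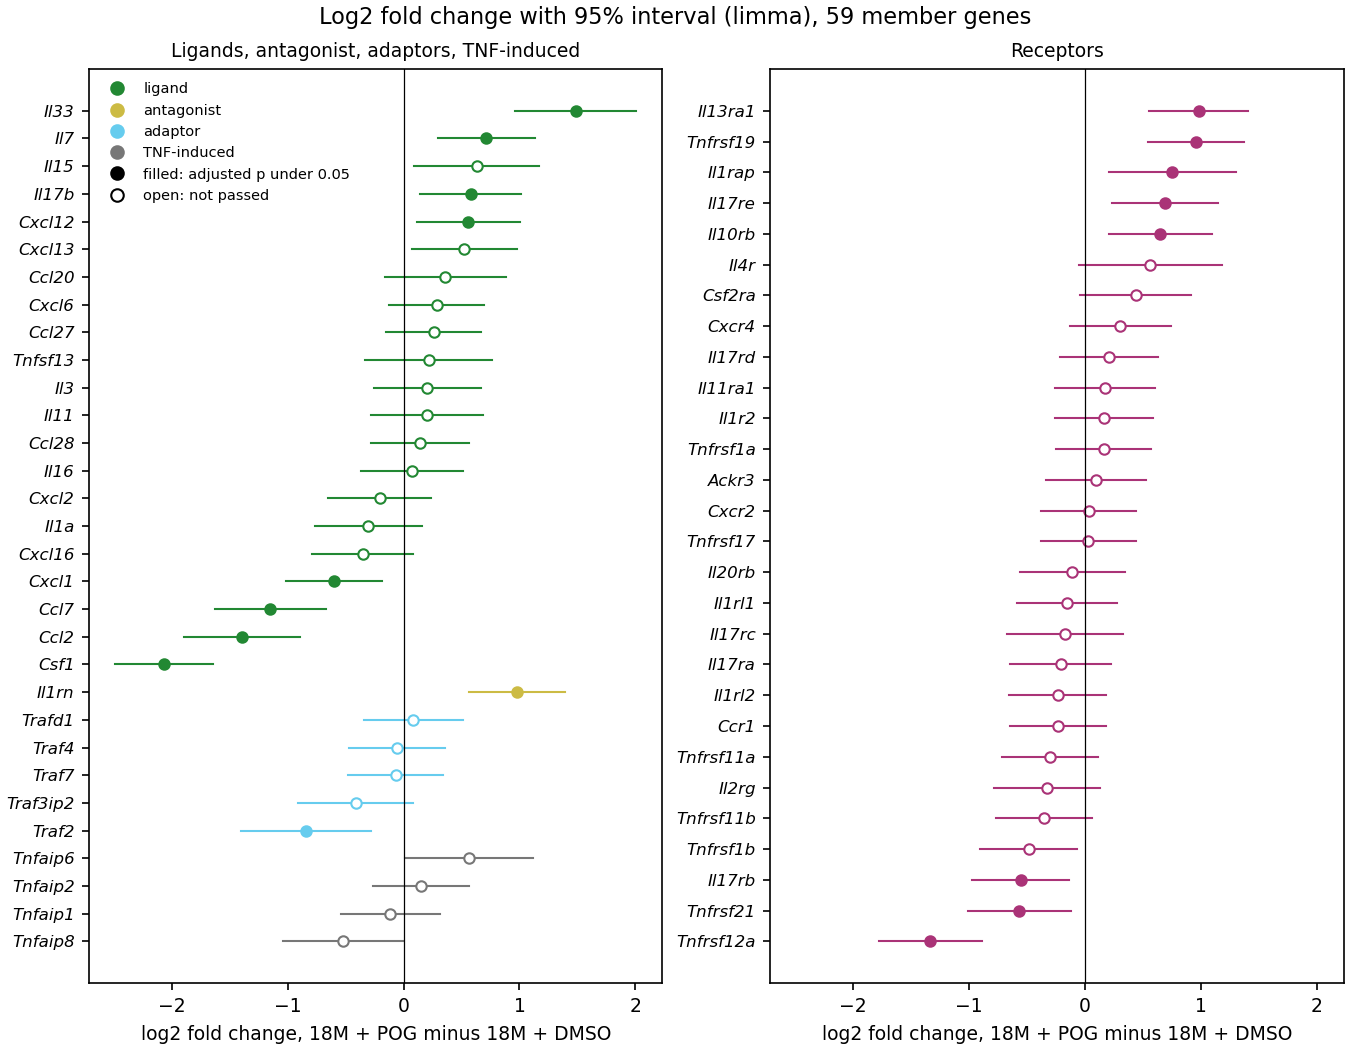
Log2 fold change (18M + POG minus 18M + DMSO, x axis) of each of the 59 genes (y axis), with its 95% interval from limma, for the ligands, antagonist, adaptors and TNF-induced genes on the left and the 28 receptors on the right. Filled circles passed an adjusted p of 0.05. Csf1 at -2.07 and Tnfrsf12a at -1.34 lie farthest to the left among ligands and receptors, and Il33 at 1.49 and Il13ra1 at 0.99 farthest to the right.

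Many of these genes lay close to the floor of the arrays. No detection values were given, so 12 genes picked by symbol as olfactory or vomeronasal receptors served as a guide. Connective tissue cells do not normally express such receptors. In rat, however, Olr1 is the symbol of an oxidized lipoprotein receptor and not of an olfactory one. The mean signals of the 12 ran from 3.52 (Vom2r3) to 5.61 (Olr59), so Olr1 set neither end. A feature's signal also depends on its probes, so levels of different genes are not ranked here. In that range, by the mean of all 4 arrays, were 22 of the 59 genes, 10 of 21 ligands and 11 of 28 receptors among them. They included the chemokines Ccl20, Ccl27, Ccl28, Cxcl2, Cxcl6 and Cxcl13, the interleukins Il1a, Il3, Il11 and Il16, and the chemokine receptors Ccr1, Cxcr2 and Cxcr4. The log2 fold changes of the 10 ligands ran from -0.31 for Il1a to 0.53 for Cxcl13, and none passed (1 had an unadjusted p under 0.05). Of the 22, Tnfrsf19 and Il17rb passed (9.09%), beside 224 of all 1146 genes in that range (19.5%). Of the 37 genes of the set above that range 16 passed (43.2%), beside 41.0% of all genes above it. These were 8 of 11 ligands and 6 of 17 receptors among others. Among the 12 guide genes themselves 2 passed, Olr1 at a log2 fold change of 1.22 and Olr59 at 0.93. A call was thus also made within that low range for Olr59, an olfactory receptor gene by its symbol. Tnfrsf21 and Traf2, which passed, had means above that range in 18M + DMSO and within it in 18M + POG.

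**Figure D2:**
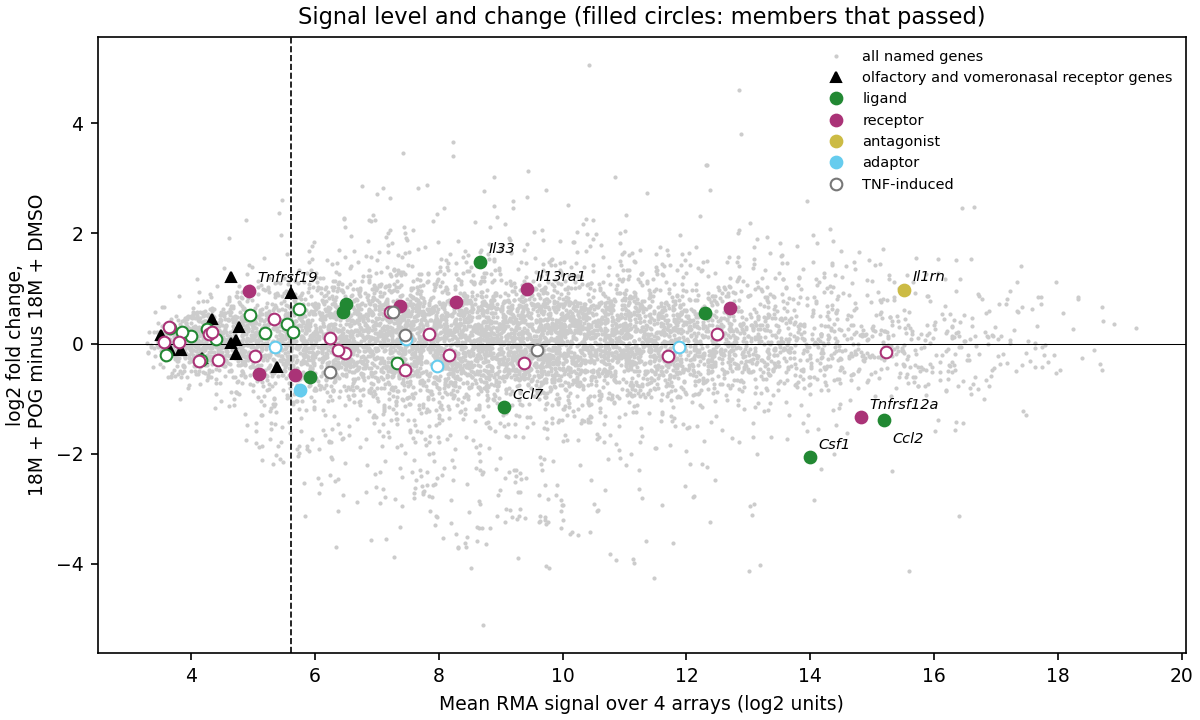
Mean RMA signal over the 4 arrays (x axis, log2 units) and log2 fold change (y axis) of all 7235 named genes (grey dots) and the 59 genes of this set (circles, filled where they passed). Triangles are the 12 guide genes, picked by symbol as olfactory or vomeronasal receptors, although Olr1 is not one. The dashed line marks the highest mean of those 12, 5.61, and 22 of the 59 circles lie at or to the left of it.

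Csf1 fell most. It encodes macrophage colony-stimulating factor, which keeps macrophages alive and drives osteoclast precursors. Its signal was 15.15 and 14.92 in 18M + DMSO and 12.96 and 12.97 in 18M + POG. All 4 arrays were far above the floor and the groups lay apart, with a log2 fold change of -2.07 ± 0.20 (SE, adjusted p = 1.46e-06 from limma), a signal 4.20-fold lower in 18M + POG. The adjusted p ranged from 3.39e-13 to 0.0109 over the limma alternatives. Its receptor gene Csf1r and the other ligand of that receptor, Il34, are not among the named features.

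Both CC chemokines that attract monocytes, Ccl2 and Ccl7, were lower in 18M + POG. Ccl2 was at 16.17 and 15.62 in 18M + DMSO and at 14.27 and 14.73 in 18M + POG. The groups did not overlap, and the log2 fold change was -1.40 ± 0.23 (SE, adjusted p = 3.32e-04 from limma). Its call was lost without 18M + POG replicate 1 (adjusted p = 0.0614 from limma, and 1.05e-08 to 0.0614 over the alternatives). Ccl7 was at 9.91 and 9.35 in 18M + DMSO and at 8.35 and 8.61 in 18M + POG, a log2 fold change of -1.15 ± 0.22 (SE, adjusted p = 0.00111 from limma). Among the 4 fits that left out an array it passed in 1, the fit without 18M + DMSO replicate 2, with log2 fold changes of -1.43 to -0.87 and an adjusted p of up to 0.0798 from limma. Ccl2 and Ccl7 are adjacent on chromosome 10 in the RefSeq gene order of GRCr8, with 0 protein-coding genes between them.

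Cxcl1, a chemokine that attracts neutrophils, was lower at a modest signal. It was at 6.29 and 6.14 in 18M + DMSO and at 5.61 and 5.62 in 18M + POG, a log2 fold change of -0.60 ± 0.19 (SE, adjusted p = 0.0251 from limma). The groups lay apart on arrays close to the floor, and the call was lost in each of the 4 fits that left out an array (adjusted p up to 0.162). Its neighbours on chromosome 14, Cxcl2 and Cxcl6, lay within the range of the guide genes. Cxcl2 was at 3.85 and 3.55 against 3.65 and 3.34, and Cxcl6 at 3.57 and 3.47 against 3.80 and 3.81. Their log2 fold changes, -0.21 (95% interval -0.65 to 0.24) and 0.29 (95% interval -0.13 to 0.70), did not pass.

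Chemokine genes are classical targets of NF-κB, so the 250 bases before the start of each gene were searched on both strands for the NF-κB consensus, with overlapping matches counted once. RefSeq promoters (GRCr8) were at hand for 50 of the 59 genes, and 9 of them (18.0%) held a match, 5 of 18 ligands and 2 of 22 receptors among them. Of the whole set of 27457 promoters 6.41% held one, and of 6073 promoters of genes on the arrays 8.07%. Among genes of this set that passed, the match was in Ccl7 and Cxcl1, which fell, and in Il1rap, which rose. Csf1, Ccl2, Il7 and Il17re, which also passed, were not among the promoters searched. Of 36 searched promoters of genes that did not pass, 6 held a match. The windows of Ccl7, Cxcl1 and Il1rap are shown with those of Cxcl2 and Cxcl6, added after the values were seen because they neighbour Cxcl1. The match is in capitals and each window is read 5′ to 3′ on the strand of its gene.
Ccl7 (chr10:67514011-67514070, plus strand, match 59 to 50 bases before the start): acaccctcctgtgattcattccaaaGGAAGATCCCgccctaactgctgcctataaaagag
Cxcl1 (chr14:17479371-17479430, minus strand, match 84 to 75 bases before the start): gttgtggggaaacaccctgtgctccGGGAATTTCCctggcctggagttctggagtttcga
Cxcl2 (chr14:17467295-17467354, minus strand, match 74 to 65 bases before the start): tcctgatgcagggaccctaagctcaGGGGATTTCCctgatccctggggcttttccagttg
Cxcl6 (chr14:17596471-17596530, minus strand, match 88 to 79 bases before the start): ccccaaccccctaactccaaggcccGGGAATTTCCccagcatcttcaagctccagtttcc
Il1rap (chr11:87704393-87704452, minus strand, match 85 to 76 bases before the start): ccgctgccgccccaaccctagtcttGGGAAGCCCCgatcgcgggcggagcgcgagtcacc
The capitals of Cxcl1 and Cxcl6 are identical, although only Cxcl1 passed. A match in these letters is a description and does not show that a factor binds there.

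Il33 rose most among the ligands. It encodes an alarmin of the IL-1 family that is stored in the nucleus of stromal cells. Its signal was 8.15 and 7.71 in 18M + DMSO and 9.07 and 9.76 in 18M + POG. Both arrays of 18M + POG lay above both of 18M + DMSO, with a log2 fold change of 1.49 ± 0.25 (SE, adjusted p = 2.96e-04 from limma), or 2.80-fold. The call was lost without 18M + DMSO replicate 2 and without 18M + POG replicate 2, with log2 fold changes of 1.14 to 1.83 in the 4 fits that left out an array and an adjusted p of 8.55e-06 to 0.0531 over the alternatives.

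The antagonist gene Il1rn rose from a high signal. It encodes the protein that occupies the IL-1 receptor without activating it, and stood at 15.05 and 15 in 18M + DMSO and at 16.06 and 15.95 in 18M + POG. The groups lay far apart relative to their spread, with a log2 fold change of 0.98 ± 0.19 (SE, adjusted p = 0.00121 from limma). The adjusted p ranged from 3.47e-07 to 0.0414 over the limma alternatives. The agonist Il1a was at 4.30 and 4.32 against 4.27 and 3.74, in the range of the guide genes, and did not pass. Il1b and Il1r1 are not among the named features.

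Il7, Il17b and Cxcl12 rose by less than 1 on the log2 scale. Il7, a growth factor of lymphocyte precursors, was at 6.14 and 6.15 in 18M + DMSO and at 6.98 and 6.74 in 18M + POG (log2 fold change 0.72, standard error 0.20, adjusted p = 0.0110 from limma). Il17b, a ligand of Il17rb, was at 6.16 on both arrays of 18M + DMSO and at 6.93 and 6.55 in 18M + POG (log2 fold change 0.58, adjusted p = 0.0373 from limma). Cxcl12, which retains stem and progenitor cells through Cxcr4, was at 12.21 and 11.84 in 18M + DMSO and at 12.48 and 12.69 in 18M + POG (log2 fold change 0.56, adjusted p = 0.0463 from limma). None of these 3 overlapped between groups, as was true of 39 of the 59 genes (21 higher and 18 lower) and of 69.8% of all genes (37.2% higher and 32.7% lower). None of the 3 passed when any 1 array was left out, with an adjusted p of up to 0.100 for Il7, 0.200 for Il17b and 0.305 for Cxcl12. Cxcl12 and Il17b also lost their calls after quantile normalization.

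**Figure D3:**
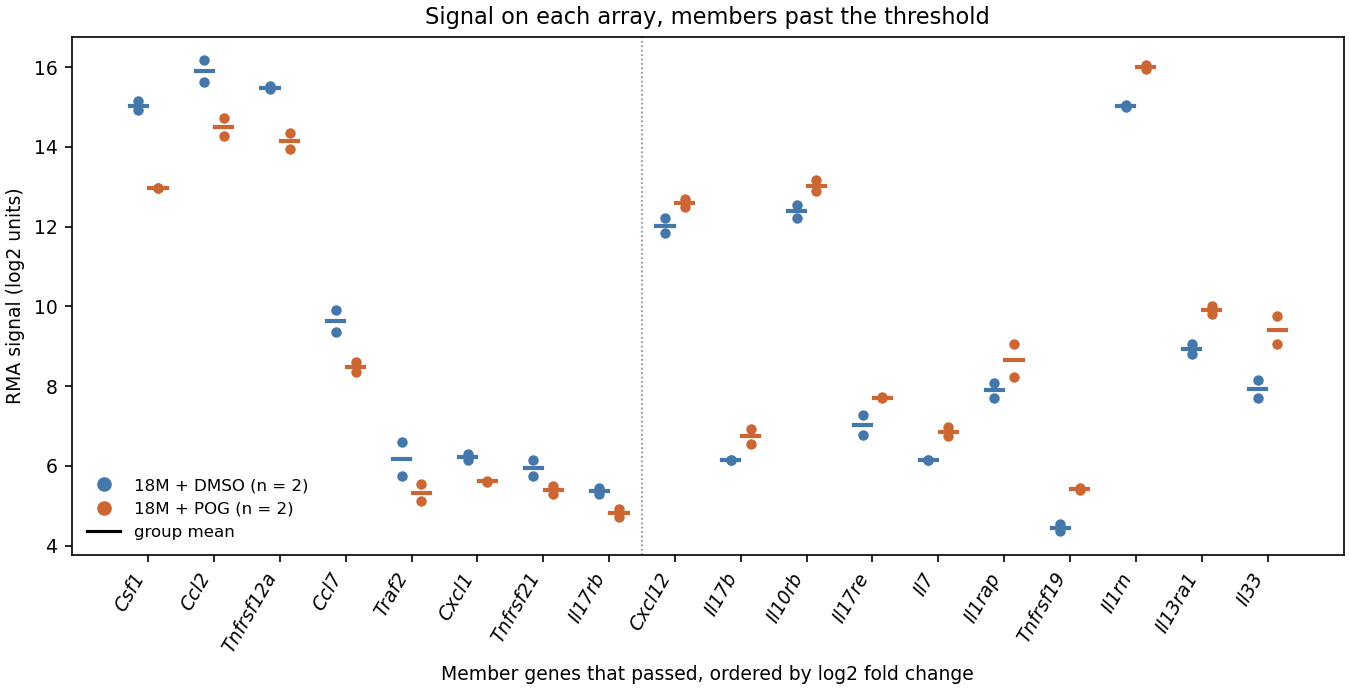
RMA signal (y axis, log2 units) on each of the 4 arrays for the 18 genes that passed (x axis, ordered by log2 fold change), with 18M + DMSO in blue, 18M + POG in orange and a bar at each group mean (n = 2). The 8 genes to the left of the dotted line were lower and the 10 to its right higher in 18M + POG, and Csf1 shows the widest gap, from 14.92 and 15.15 to 12.96 and 12.97.

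Among the receptors, Tnfrsf12a changed most. It encodes Fn14, the receptor of the ligand TWEAK, which is induced in injured tissue. Its signal was 15.52 and 15.45 in 18M + DMSO and 13.94 and 14.36 in 18M + POG, and both arrays of 18M + POG were lower. The log2 fold change was -1.34 ± 0.21 (SE, adjusted p = 1.76e-04 from limma), and the adjusted p ranged from 6.62e-09 to 0.0304 over the limma alternatives. The gene of its ligand, Tnfsf12, is not among the named features.

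Tnfrsf21, a death receptor also called DR6, and Tnfrsf19, also called TROY, moved in opposite directions at low signal, where the size of a change is uncertain. Tnfrsf21 was at 5.76 and 6.16 in 18M + DMSO and at 5.29 and 5.5 in 18M + POG (log2 fold change -0.57, adjusted p = 0.0464 from limma), and lost its call when any 1 array was left out (adjusted p up to 0.315). Tnfrsf19 was at 4.55 and 4.36 in 18M + DMSO and at 5.39 and 5.44 in 18M + POG (log2 fold change 0.96, standard error 0.19, adjusted p = 0.00153 from limma). It lies in the range of the guide genes and lost its call without 18M + DMSO replicate 2 (adjusted p = 0.0501 from limma, and 3.67e-04 to 0.0501 over the alternatives). The other TNF receptors did not pass. The main TNF receptor gene, Tnfrsf1a, was at 12.42 and 12.41 against 12.61 and 12.55, with a difference of 0.17 (95% interval -0.25 to 0.58). Tnfrsf1b was at 7.80 and 7.60 against 7.23 and 7.20 (log2 fold change -0.49, adjusted p = 0.0634 from limma). Tnfrsf11b, the secreted decoy receptor osteoprotegerin, was at 9.56 and 9.54 against 9.29 and 9.10 (log2 fold change -0.36, adjusted p = 0.167 from limma).

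Of 15 interleukin receptor genes, 4 were higher and 1 was lower. That is 33.3% of them, beside 37.6% of all genes (20.4% higher and 17.2% lower). Il13ra1, which pairs with Il4r to bind IL-4 and IL-13, was at 9.05 and 8.81 in 18M + DMSO and at 9.82 and 10.01 in 18M + POG, without overlap (log2 fold change 0.99, standard error 0.20, adjusted p = 0.00152 from limma). It lost its call without 18M + DMSO replicate 2 and without 18M + POG replicate 2 (adjusted p up to 0.0575). Il1rap, the chain shared by the receptors of IL-1 and IL-33, was at 7.71 and 8.09 against 8.24 and 9.07 (log2 fold change 0.76, standard error 0.26, adjusted p = 0.0323 from limma). Its 2 arrays of 18M + POG differed by more than the group means did. Without 18M + POG replicate 2 the log2 fold change was 0.34, and the call held only without 18M + POG replicate 1 among the fits that left out an array (adjusted p up to 0.361 in the others).

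Il10rb, the chain shared by IL-10 and IL-22 receptors, was at 12.22 and 12.54 against 12.89 and 13.17 (log2 fold change 0.65, adjusted p = 0.0238 from limma). Its call was lost when any 1 array was left out (adjusted p up to 0.218). Within the IL-17 receptor family the 2 genes that passed had opposite signs. Il17re, a chain of the IL-17C receptor, was at 7.28 and 6.77 against 7.73 and 7.70 (log2 fold change 0.69, adjusted p = 0.0209 from limma). Il17rb was at 5.30 and 5.45 against 4.92 and 4.72 (log2 fold change -0.56, adjusted p = 0.0386 from limma), in the range of the guide genes. Il17re kept its call without 18M + DMSO replicate 1 alone (adjusted p up to 0.223 in the other fits that left out an array), and Il17rb lost it when any 1 array was left out (up to 0.204) and after median subtraction. Their family members Il17ra, Il17rc and Il17rd had log2 fold changes of -0.21, -0.17 and 0.21, which did not pass.

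The 4 chemokine receptor genes did not pass, with log2 fold changes from -0.24 for Ccr1 to 0.31 for Cxcr4. Ackr3, a scavenger of Cxcl12, was at 6.12 and 6.28 against 6.14 and 6.45, a difference of 0.10 (95% interval -0.34 to 0.53). Il1rl1, the IL-33 receptor also called ST2, had signals of 15.45 and 15.15 against 15.09 and 15.20, a difference of -0.16 (95% interval -0.58 to 0.27). Its 4 arrays all lay far above the range of the guide genes, and its groups overlapped. Its chromosomal neighbours Il1rl2 and Il1r2 also did not pass, at -0.24 and 0.17. Il4r, the partner of Il13ra1, was at 6.44 and 7.42 in 18M + DMSO and at 7.80 and 7.19 in 18M + POG, with overlapping groups (log2 fold change 0.57, adjusted p = 0.138 from limma). Csf2ra, Il2rg, Il11ra1, Il20rb, Tnfrsf11a and Tnfrsf17, the remaining receptors, had log2 fold changes between -0.33 and 0.44.

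Of 5 genes whose symbols start with Traf, 1 passed. Traf2, the adaptor of both TNF receptors, was at 5.75 and 6.6 in 18M + DMSO and at 5.12 and 5.54 in 18M + POG, a log2 fold change of -0.85 ± 0.26 (SE, adjusted p = 0.0206 from limma). Leaving out 1 array moved the log2 fold change between -1.27 and -0.42, with the call kept in 1 of those 4 fits, the one without 18M + DMSO replicate 1 (adjusted p up to 0.312 in the others). Both arrays of 18M + POG lay within the range of the guide genes, so the size of this change is uncertain. Traf4, Traf7, Trafd1 and Traf3ip2, the IL-17 receptor adaptor also called Act1, lay between -0.42 and 0.09. None of the 4 TNF-induced genes passed. Tnfaip6, which encodes the hyaluronan-binding protein TSG-6, was at 6.80 and 7.17 against 7.13 and 7.97 (log2 fold change 0.57, adjusted p = 0.0978 from limma), and its groups overlapped. It passed in a fit with the replicate number as a block. Tnfaip8 was at 6.13 and 6.87 against 6.11 and 5.84 (log2 fold change -0.53, adjusted p = 0.101 from limma).

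The ligands that did not pass ranged from -0.36 for Cxcl16 to 0.63 for Il15. Il15, which sustains natural killer cells, was at 5.61 and 5.24 in 18M + DMSO and at 5.66 and 6.45 in 18M + POG (adjusted p = 0.0621 from limma). Its mean in 18M + DMSO was in the range of the guide genes. Under the alternatives, Il15 passed after median subtraction and with a variance prior that follows signal level. Cxcl13, which attracts B cells, was at 4.62 and 4.77 against 5.0 and 5.44 (log2 fold change 0.53, adjusted p = 0.0624 from limma). Cxcl13 passed after median subtraction and in a fit with the replicate number as a block. Tnfsf13, also called APRIL and the sole TNF superfamily ligand among the 59 genes, was at 5.09 and 6.0 against 5.69 and 5.83, with overlapping groups. In the limma fit 23 of the 59 genes had an unadjusted p under 0.05, beside 3423 of all 7235 genes.

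Ligand and receptor could be read side by side for few pairs. Of 47 pairs written from general knowledge, with earlier results of these data known, 7 had both genes measured. In none of these 7 did the receptor pass. Cxcl12 was higher by 0.56 while Cxcr4 (0.31) and Ackr3 (0.10) did not pass. Ccl7 was at -1.15 with Ccr1 at -0.24, and Cxcl1 at -0.60 with Cxcr2 at 0.04, both receptors in the range of the guide genes. Il33 was higher by 1.49 with Il1rl1 at -0.16. Another 7 pairs were added after the values were seen. Among them Il13ra1 with Il4r is a pair of receptor chains, and Il1rn with Il1a an antagonist with an agonist. In Il33 with Il1rap both were higher, and in Il17b with Il17rb the ligand was higher and the receptor lower. In Il13ra1 with Il4r, Il1a with Il1rap and Il1rn with Il1a 1 partner passed, and in Cxcl6 with Cxcr2 and Tnfsf13 with Tnfrsf17 neither did.

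Genes downstream of these receptors were counted from 5 lists. Of 14 measured genes of TNF and death receptor signalling, 6 were lower, 0 were higher and 8 did not pass. That is 42.9% of them, beside 37.6% of all genes (20.4% higher and 17.2% lower). The median log2 fold change of the 14 was -0.23, beside 0.04 for all genes. In the limma fit 6 of the 14 had an unadjusted p under 0.05, beside 3423 of all 7235 genes. Ripk3, a kinase of necroptosis, was at -1.39 (adjusted p = 6.56e-05 from limma), and Fadd, the death receptor adaptor, at -0.87. Tank and Cflar, which restrain NF-κB activation and caspase-8, were at -0.74 and -0.68. The list of JAK kinases and STAT factors had 12 measured genes, of which Pias1, Pias2, Pias3, Stam and Stam2 are neither. Of the 12, 3 rose, 0 fell and the other 9 did not pass. The share that passed was 25%, below the 37.6% of all genes. The log2 fold changes of the 12 lay between -0.48 and 1.43 (median 0.22). In the limma fit 5 of the 12 had an unadjusted p under 0.05, beside 3423 of all 7235 genes. Jak2 was at 1.43 (adjusted p = 3.70e-04 from limma), Stat3 at 1.04 and Stat2 at 0.65.

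Of 16 genes of IL-1 receptor and Toll-like receptor signalling, 5 were higher and 2 lower (median 0.15). Ly96, the partner of Tlr4 in binding lipopolysaccharide, was at 1.10 and Casp1, which matures IL-1β and IL-18, at 1.02, with both Casp1 arrays of 18M + DMSO in the range of the guide genes. The inflammasome gene Nlrp3, at 5.34 and 6.14 against 4.96 and 4.30 and with its mean in the range of the guide genes, was at -1.11, and the kinase gene Irak4 at 0.74. Of 12 genes listed as NF-κB subunits and inhibitors, kinases such as Chuk and Ikbkb among them, Tax1bp1 was higher (0.71) and Cyld lower (-0.60). The other 10 did not pass. Of 14 G protein signalling genes, Ptk2b was higher (0.68), and Grk6 (-1.02) and Arrb1 (-0.85), which switch chemokine receptors off, were lower. Arrb1 was at 6.63 and 6.79 in 18M + DMSO and at 6.38 and 5.35 in 18M + POG, the last in the range of the guide genes. Grk2 (-0.495), Grk5 (0.335) and Arrb2 (-0.58) of the same list did not pass. Arrays measure transcripts and not the phosphorylation or location of these proteins. The share that passed, from 16.7% for NF-κB to 43.8% for IL-1 and Toll-like receptor signalling, is to be read against 37.6% of all genes.

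**Figure D4:**
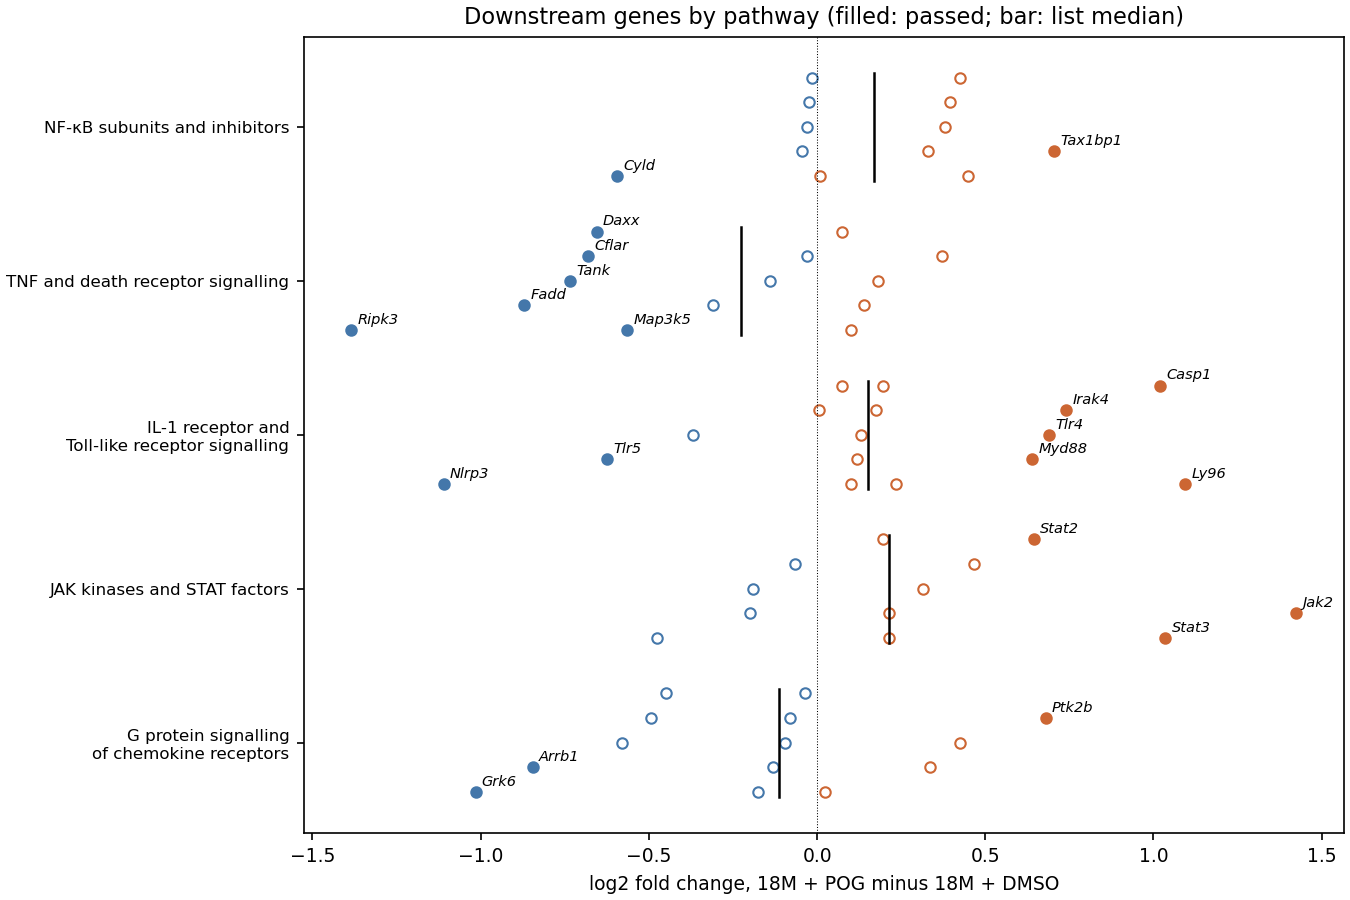
Log2 fold change (18M + POG minus 18M + DMSO, x axis) of the measured genes of 5 downstream lists (y axis; height within a list only separates the points). Filled circles passed and are named, orange stands for values above 0 and blue for values below 0, and a bar marks each list's median, which runs from -0.23 for TNF and death receptor signalling to 0.22 for JAK kinases and STAT factors.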

How the data were processed

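Total RNA of cultured rTSPCs was hybridised to 4 Affymetrix Rat Transcriptome Arrays, 2 for each treatment. The authors deposited log2 RMA signals, made with Affymetrix default settings and global scaling; the software version, genome build and detection values are not given in the sources used here. Another deposited table, also of log2 values, was identical for 10141 of 10141 features. Of these, 7240 carried 1 gene symbol, and for 4 genes with several features the one with the highest mean was kept (7235 genes). Groups were compared with limma 3.58.1 (R 4.3.3; lmFit and eBayes, group only), with Benjamini-Hochberg adjustment over all 7235 genes and a threshold of 0.05, after a test on simulated data. The study's methods named a t-test with a fold change over 1.5, used here as an alternative. Every gene of the set that passed was named, with those of largest change that did not pass, those of measured ligand and receptor pairs, and up to 4 per downstream list; Tnfrsf1a, Tnfrsf11b, Il1rl2, Il1r2, Tnfsf13 and Il1a were added after their values were seen. The genes, lists and pairs were chosen with earlier results of these data known. With 2 arrays against 2, an exact permutation test cannot go below p = 0.333 (two-sided), so none is given. The number of arrays limits the precision. Promoters came from RefSeq (GRCr8).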

Additional observations from a re-analysis of the deposited data

How the results depend on the processing

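None of the 18 genes that passed changed sign under the alternatives run; for genes that did not pass and for the downstream lists, values under the alternatives are not given. Of these 18, 10 were higher and 8 lower, and with 1 array left out the counts were 1 to 5 higher and 2 to 4 lower, for ligands 0 to 1 higher and 1 to 3 lower, and for receptors 0 to 3 higher and 1 lower. These fits leave 1 group with 1 array, assumed to vary like the others, and call 523 to 660 genes of all kinds as higher and 592 to 619 as lower, against 1475 and 1248. Under the methods' t-test, unadjusted, 4 genes were higher and 3 lower (ligands 1 and 2, receptors 2 and 1), and after adjustment 0 in each, for all genes too. With the dimmest 25% of genes left out, 26 of the 59 were tested and 4 were lower, with 2 ligands higher and 1 receptor lower; 7 of the 18 were then not tested. Quantile normalization left 2 ligands higher. Median subtraction gave 12 higher and 6 lower, with 1 receptor lower. A fold change over 1.5 left 2 ligands higher and 1 receptor lower. The cause of these changes was not tested, apart from the genes that were not tested. Same-numbered replicates share only a number: over all named genes the replicate differences of the 2 groups correlated at 0.15 (r = 0.145), and a fit with that number as a replicate block called 12 genes as higher and 8 as lower, ligands 5 and 4 and receptors 5 and 3. The source table and the mean over several features changed no call.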
